A study of Homo sapiens with 2 samples.

Results

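TCF7L1 had 639 called regions at the core promoters of 674 protein-coding genes, at places where the DNA-binding mutant of the same protein had no called region. The cells were HCT116, an established human colon cancer line, in which the shRNA shTCF7L1-2 lowered the endogenous TCF7L1 transcript. They carried a doxycycline-inducible pCW57.1 lentiviral plasmid for a FLAG-tagged, shRNA-resistant protein and received 1 µg/ml doxycycline. In the TCF7L1 group the protein was intact, and in the TCF7L1-MUT group its HMG box, the part that binds DNA, was mutated. Bound chromatin was precipitated through the FLAG tag for ChIP-seq. Each group had 1 sample, so no value has a replicate check, no test was run between the groups, and every interval below covers counting error only. The tagged protein was made in stably transduced, puromycin-selected cells under an inducible promoter and not from the gene's own promoter.

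The 639 regions, called members below, are defined by position. They are called TCF7L1 regions on chromosomes 1 to 22 and X that shared not a single base with a TCF7L1-MUT region and whose summit, the base with the most reads, lay within 1 kb of the transcription start site (TSS) of a coding transcript in GENCODE release 44. They make up 18.3% of the 3487 TCF7L1-only regions of those chromosomes and 17.4% of all 3663 TCF7L1 regions. Of the 19626 coding genes annotated there, 674 (3.43%) had such a region, and these are called genes with a member below. The absence of a TCF7L1-MUT region is part of that definition and is not a finding. Less mutant protein, a weaker precipitation and a loss of binding cannot be told apart from 1 sample each. The TCF7L1-MUT list held 204 regions. By the study's account that library was no shallower than the other. Only 4 TCF7L1 regions with a TCF7L1-MUT partner had a summit within 1 kb of a coding TSS, and all 4 lay in sequence that the genome holds many times (USP17L22, USP17L23, USP17L24 and GAGE2A). The nearest TCF7L1-MUT region to any member was 15081 bp away.

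TCF7L1 belongs to the TCF/LEF family, which carries the transcriptional output of canonical Wnt signalling. Its HMG box bends DNA at a short core sequence, and without β-catenin the protein is known mainly as a repressor that recruits TLE/Groucho proteins. With β-catenin, TCF/LEF factors activate genes such as AXIN2 and LGR5, and in HCT116 cells β-catenin is stabilised by mutation. A core promoter is the stretch around a TSS where RNA polymerase II is loaded. In vertebrates it often lies in a CpG island, a stretch rich in G, C and the dinucleotide CG, and it can serve 2 genes that leave it in opposite directions.

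The sequences under the summits show how differently the members are built. They are given in hg38 for 100 bp to either side of the summit, 5′ to 3′ on the strand of the gene, and capitals mark matches to the TCF/LEF core on either strand. The core was searched as CTTTG followed by any 2 of A or T, and a match is a description of letters and not a site shown to be bound. The windows shown hold the core more often than members do, as 22.2% of all members held it. The first 3 are Wnt target genes, shown because the core lies at different distances from their summits. They are DKK1 (chr10:52314120-52314320, plus strand), LGR5 (chr12:71439191-71439391, plus strand) and CCND1 (chr11:69640958-69641158, plus strand).
DKK1: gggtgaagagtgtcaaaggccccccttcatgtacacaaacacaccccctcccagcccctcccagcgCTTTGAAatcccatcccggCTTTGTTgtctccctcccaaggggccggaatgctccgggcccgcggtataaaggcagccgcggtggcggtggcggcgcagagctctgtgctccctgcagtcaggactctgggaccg
LGR5: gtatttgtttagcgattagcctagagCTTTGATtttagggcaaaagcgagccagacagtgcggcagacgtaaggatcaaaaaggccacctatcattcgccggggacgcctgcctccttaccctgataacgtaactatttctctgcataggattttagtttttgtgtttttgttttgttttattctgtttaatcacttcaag
CCND1: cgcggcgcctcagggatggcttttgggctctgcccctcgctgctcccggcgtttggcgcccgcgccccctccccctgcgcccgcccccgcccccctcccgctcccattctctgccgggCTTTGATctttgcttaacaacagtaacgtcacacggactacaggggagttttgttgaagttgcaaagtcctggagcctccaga
DKK1, a secreted Wnt inhibitor, held 2 matches, centred 31 and 12 bp upstream of the summit. The match of LGR5, a receptor that marks intestinal stem cells, was 71 bp upstream, and that of CCND1, the G1 cyclin D1, was 21 bp downstream. The window of TNFRSF19, a Wnt target gene of higher fold enrichment than LGR5 and CCND1, held no match.

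GAS1 and TNC are genes the study names. GAS1 (chr9:86947568-86947768, minus strand) had no match and TNC (chr9:115118603-115118803, minus strand) had 1, centred 82 bp upstream of the summit.
GAS1: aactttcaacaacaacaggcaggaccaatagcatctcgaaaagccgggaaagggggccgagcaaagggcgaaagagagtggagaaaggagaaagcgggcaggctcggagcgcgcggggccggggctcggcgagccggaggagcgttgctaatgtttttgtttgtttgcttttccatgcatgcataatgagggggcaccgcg
TNC: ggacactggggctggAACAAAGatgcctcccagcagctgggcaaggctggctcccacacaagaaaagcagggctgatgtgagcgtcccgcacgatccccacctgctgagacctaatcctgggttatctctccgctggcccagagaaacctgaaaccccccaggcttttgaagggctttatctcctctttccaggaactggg
Among the 10 members of highest fold enrichment, SEMA3A (chr7:84195003-84195203, minus strand), TRDMT1 (chr10:17201132-17201332, minus strand) and CHD2 (chr15:92904139-92904339, plus strand), are shown to set strength beside sequence. SEMA3A had no match and a run of CT repeats downstream, TRDMT1 had a match 43 bp upstream of the summit and CHD2 had a match 47 bp downstream of it.
SEMA3A: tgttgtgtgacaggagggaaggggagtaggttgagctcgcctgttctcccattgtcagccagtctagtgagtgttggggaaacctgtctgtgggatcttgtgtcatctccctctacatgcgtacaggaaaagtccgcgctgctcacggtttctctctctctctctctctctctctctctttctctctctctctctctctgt
TRDMT1: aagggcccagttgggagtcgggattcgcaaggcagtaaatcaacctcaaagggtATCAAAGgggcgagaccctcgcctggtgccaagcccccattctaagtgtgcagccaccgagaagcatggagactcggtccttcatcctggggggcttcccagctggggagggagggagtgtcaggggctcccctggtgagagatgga
CHD2: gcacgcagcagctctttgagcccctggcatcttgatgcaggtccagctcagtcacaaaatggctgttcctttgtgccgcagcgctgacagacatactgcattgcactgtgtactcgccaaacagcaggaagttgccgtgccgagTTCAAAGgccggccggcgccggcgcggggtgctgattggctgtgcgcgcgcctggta
The strongest member shared by a divergent gene pair was that of GIN1 and PPIP5K2 (chr5:103119996-103120196, shown on the plus strand, that of PPIP5K2). Here the capitals mark the bases from the TSS of GIN1 to the TSS of PPIP5K2, which are 52 bp apart, and the summit lay 1 bp inside GIN1.
PPIP5K2: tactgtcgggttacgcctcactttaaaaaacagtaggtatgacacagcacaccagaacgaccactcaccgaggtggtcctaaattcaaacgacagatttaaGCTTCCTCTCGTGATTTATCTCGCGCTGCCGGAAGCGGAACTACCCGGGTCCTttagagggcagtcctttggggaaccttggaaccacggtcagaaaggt

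The members were modest peaks with few reads. Fold enrichment, reads over the summit divided by the local background, each plus 1, had a median of 4.59 (95% interval 4.51 to 4.68) and ran from 2.75 to 10.9. The number of reads at the summit, solved from the fold enrichment and its p-value, had a median of 19 over a background of 3.35 and ran from 7 to 92. The median −log10 q was 4.55, and the weakest members, at RNF146 and HOMEZ, had 1.31. Regions over 5 kb from any coding TSS were called on about as many reads, 20 over 3.13, but their median fold enrichment was 5.10 (5.05 to 5.14). Of the members, 35.8% (32.2 to 39.6) reached a fold enrichment of 5, against 53.7% (51.8 to 55.7) of those 2566 distant regions and 33.7% (28.4 to 39.4) of the 282 regions 1 to 5 kb from a coding TSS. Members were rarely in repeated sequence: 3.91% (25 regions) were multi-copy, meaning that at least 50% of the 31-base words of the window also occur elsewhere in the genome, against 23.9% of the distant regions. Of these 25 members, 16 were among the 160 members of highest fold enrichment. The distant regions have no value for single-copy windows alone, so the comparison of fold enrichment is not matched for copy number.

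The strongest members sat at genes of varied function. SEMA3A, which encodes a secreted axon guidance protein, led with a fold enrichment of 10.9 on 40 reads, 58 bp downstream of its TSS (region chr7:84194850-84195403). TRDMT1, a tRNA methyltransferase, followed at 9.89 on 57 reads. FBXW7, the substrate receptor of a ubiquitin ligase that marks cyclin E and MYC for degradation, had 9.42 on 28 reads, 48 bp upstream of a TSS that is not its canonical one. The chromatin remodeller CHD2 had 9.10 on 58 reads, and the adhesion molecule NECTIN3 had 8.82 on 36 reads. SYCP2L, related to a protein of the meiotic synaptonemal complex, had 8.77, and PLEKHA5, with a lipid-binding domain, had 8.39. GIN1 and PPIP5K2, a kinase that makes inositol pyrophosphates, shared a region of 8.37. CLASP2, which stabilises microtubule ends, had 8.31, at a summit window with the lowest GC content of those named here, 36.3%. The windows of these members were single-copy, and 3 of them (TRDMT1, CHD2 and NECTIN3) held the TCF/LEF core.

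Summits crowded around the TSS. The median distance was 211 bp (189 to 245), and 28.6% of summits lay within 100 bp of a TSS, a belt that holds 13.9% of all bases within 1 kb of a coding TSS. Per Mb of such bases there were 18.3 members up to 100 bp, 14.2 from there to 250 bp, 7.07 to 500 bp, 5.95 to 750 bp and 4.15 to 1000 bp. The density thus fell in each step of distance to the nearest of all coding TSSs. By that distance 99 of the 639 members lay within 100 bp upstream and 83 within 100 bp downstream. By distance to the canonical TSS it was 36 and 42 of 472 members. How strongly summits crowd thus depends on which TSSs are counted. At the edge of the definition, SMC3 (989 bp upstream, fold enrichment 3.30) and SLC22A11 (1000 bp upstream, 5.52) were just inside, and SPX (1019 bp downstream, 5.6) and COLEC12 (1021 bp downstream, 5.22) were just outside. FZD8, a Wnt receptor gene, was also outside, with a summit 1117 bp upstream of its TSS and a fold enrichment of 3.85.

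**Figure D1:**
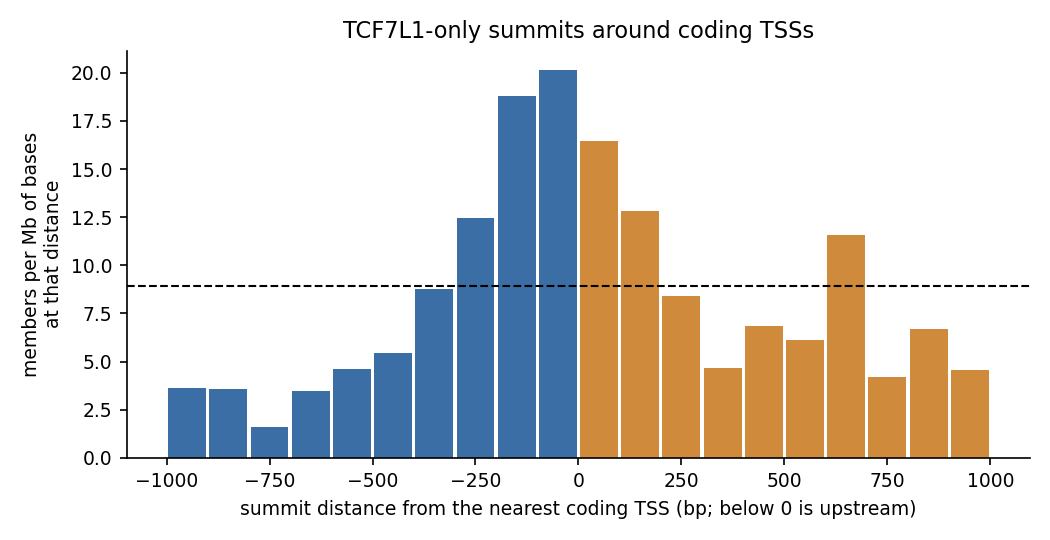
Members per Mb of bases at each distance from the nearest coding TSS, in bins of 100 bp, upstream in blue and downstream in orange, with the dashed line at the rate over all bins. The bin just upstream of the TSS had the highest density, 20.1 per Mb, and the bin 600 to 700 bp downstream stood above its neighbours at 11.5.

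Both sides of the TSS were used about equally in all, but not at the same distances. Of the summits, 319 were upstream and 320 downstream, 49.9% upstream (46.1 to 53.8), beside 48.7% of all bases within 1 kb. Up to 500 bp the upstream side held 266 and the downstream side 209, 56% upstream (51.5 to 60.4) against 48.9% of the bases. Beyond 500 bp the balance turned, with 53 upstream and 111 downstream, 32.3% upstream (25.6 to 39.8) against 48.4% of the bases. With 1 canonical TSS per gene the share upstream was 45.7% (41.2 to 50.2), so the side depends on which TSSs are counted. By annotation, 46.2% of summits were in an intron, 25.5% outside coding transcripts, 23.5% in a 5′ UTR, 4.38% in a coding exon and 0.469% in a 3′ UTR. Most summits, 73.9%, were within 1 kb of a canonical TSS.

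Divergent coding gene pairs held 44 of the 639 regions, 6.89% (5.17 to 9.12), where bases within 1 kb of both TSSs of such a pair are 3.66% of all bases within 1 kb of a coding TSS. A pair was counted when its TSSs point away from each other and are at most 1 kb apart. These pairs were 44 of the 1467 annotated, or 2.999% (2.242 to 4.002). That interval includes the 3.43% of all coding genes with a member, so counted per pair no excess was seen. The former share counts pairs and the latter counts genes. Of genes with a member, 16.6% (14 to 19.6) belonged to a divergent pair, whether or not the member lay at the pair, against 14.5% of all coding genes. Summits at pairs were a median of 104 bp (63 to 171) from the nearest TSS, against 221 bp (196 to 258) for the other members, and 12 of the 44 lay between the TSSs. Their median fold enrichment, 4.64 (4.32 to 4.98), was close to the 4.58 (4.51 to 4.67) of the other members. A coding gene divergent with a long non-coding RNA gene was found at 16.4% of members (13.8 to 19.5), where such places hold 6.79% of the bases. Since summits crowd near TSSs, and pairs bring TSSs together, these base shares are not matched for distance.

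After GIN1/PPIP5K2 came TSPAN19/LRRIQ1, a tetraspanin and a leucine-rich repeat gene, at 6.64, with the summit between TSSs 74 bp apart. PPP1R3D/FAM217B followed at 6.16, where PPP1R3D directs protein phosphatase 1 to glycogen. AZI2/ZCWPW2 had 6.14, where AZI2 is an adaptor of the kinase TBK1. WBP11/C12orf60, led by the splicing-linked WBP11, had 6.13, and DCLRE1A/NHLRC2, led by a DNA crosslink repair nuclease, had 6.10. Of these 6 summits, 1 lay between the TSSs and the others inside 1 of the genes, up to 640 bp from the nearer TSS.

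Windows of 201 bp had a median GC content of 55.7% (55.2 to 56.7), with quartiles at 50.7 and 62.2. Windows centred on canonical TSSs of all coding genes had a median of 66.7%, and windows placed every 100 bp from 1000 bp upstream to 1000 bp downstream had 54.7%. To compare at equal distance, the 472 members within 1 kb of a canonical TSS were set beside all canonical promoters at the same distance from it. Within 100 bp downstream their median was 58.2% (55.7 to 65.7) against 66.2%, and within 100 bp upstream 62.9% (57.7 to 64.7) against 65.7%. Near the TSS the members were thus lower, and from 500 to 1000 bp they were higher, with 52.2% (50.7 to 55.2) against 48.8% upstream and 55.2% (54.2 to 57.7) against 52.7% downstream. From 250 to 500 bp on either side the interval held the promoters' median. CpG-rich windows had a GC content of at least 50% and a CG count of at least 0.6 of its expectation. They were 53.2% (49.3 to 57.0) of members, 67.9% of TSS-centred windows and 35.3% of the windows placed every 100 bp. Of the regions 1 to 5 kb away they were 22%, and of the distant ones 8.77%. At equal distance from the canonical TSS, members had the higher share at every distance compared except within 100 bp upstream (61.1% against 66.0%). The shares were 73.8% against 66.8% within 100 bp downstream, and 73.1% against 47.9% from 250 to 500 bp downstream. No interval was computed for these shares, and 1 distance class held only 36 members. By distance to the nearest of all coding TSSs, members had the lower share within 250 bp on either side, such as 63.9% against 66.8% within 100 bp downstream. Near the TSS the direction thus depends on which TSSs are counted.

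**Figure D2:**
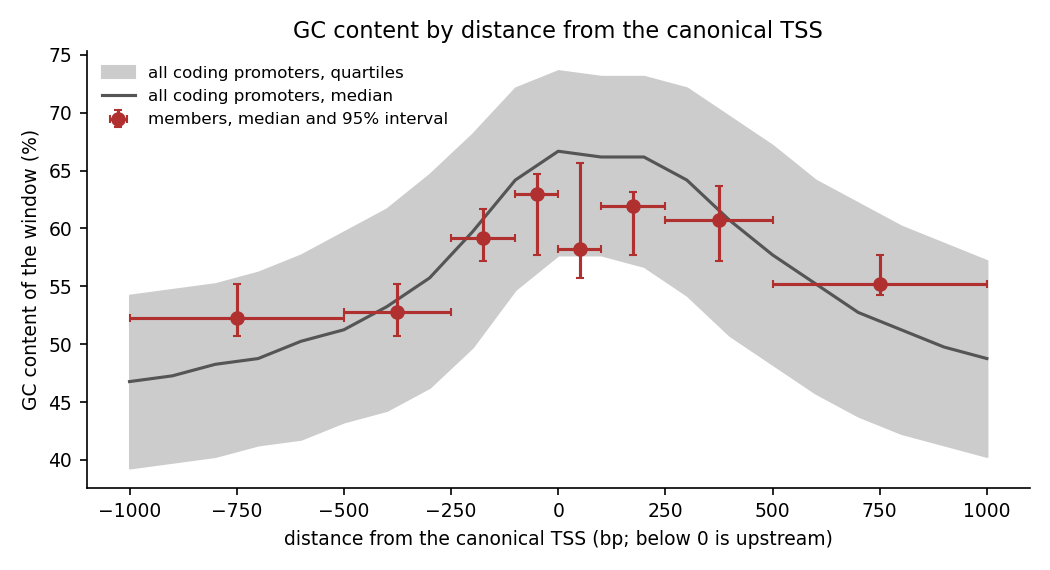
Median GC content of the 201 bp windows against distance from the canonical TSS, for the 472 members within 1 kb of a canonical TSS (red, with 95% intervals and the width of each distance bin) and for all canonical coding promoters (grey line, with quartiles shaded). The promoters peak at 66.7% at the TSS, and the members' medians run from 52.2% to 62.9%.

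The genes themselves had TSSs of ordinary composition in AT-rich surroundings. At the canonical TSS, genes with a member had a median GC content of 66.9% (65.7 to 68.2) and all coding genes 66.7%. At 2 kb to either side it was 38.6% (38.1 to 39.3) against 45% for all coding genes, and over 50 kb to either side 39.9% (39.5 to 40.2) against 44.2%. Of 1945 genes in surroundings under 38% GC, 9.31% (8.09 to 10.7) had a member. The share was 5.93% from 38 to 42%, 2.64% from 42 to 46%, 0.990% from 46 to 50%, and 0.632% (0.438 to 0.912) of 4429 genes at 50% and over. The fall was in every step and was also seen with canonical TSSs alone, from 7.92% to 0.474%. Around regions 1 to 5 kb from a TSS the surroundings had 43.0% GC (42.1 to 44), and around the distant regions 40.5%.

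The genes with a member were also long. Their median span was 78.1 kb (68.4 to 87.6), against 25.7 kb for all coding genes, and 23.6% of them spanned at least 200 kb against 7.16%. Genes of 100 kb or more had surroundings with a median of 40.9% GC and genes under 30 kb 46.6%, so the properties go together, but the share moved with each of them within the classes of the other. Among genes of 100 kb or more the share was 14.7% under 38% GC and 3.13% (5 genes) at 50% and over. Among genes under 30 kb it was 4.30% and 0.470% in the same bands. Genes with a member had a median of 4 TSS positions and all coding genes 3. Counted at the canonical TSS alone, the transcript spanned 57.9 kb (49.4 to 68.4) against 22.7 kb.

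**Figure D3:**
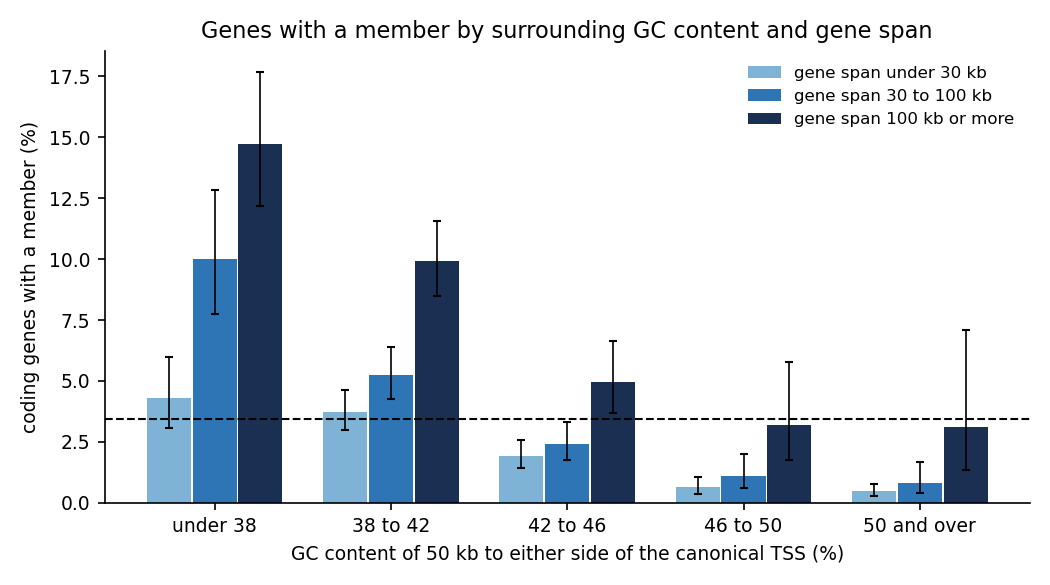
Share of coding genes with a member, by the GC content of the surrounding 50 kb to either side of the canonical TSS and by gene span, with Wilson 95% intervals and the share over all coding genes (3.43%) as a dashed line. The share fell from left to right in each span class and was highest, 14.7%, for long genes in the most AT-rich band.

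Chromosomes at either end of the GC scale showed the same. Chromosome 19, with the most GC-rich surroundings of its genes (median 51.8%), had 3 of 1432 genes with a member (0.209%, 0.0713 to 0.614), and chromosome 22 (51.0%) had 3 of 434 (0.691%). Chromosomes 16 (49.5%), 17 (48.9%) and 20 (46.7%) followed, with 0.949%, 2.25% and 0.931%. Chromosome 4, with the lowest median (39.7%), had 52 of 752 (6.91%, 5.31 to 8.96). Next came chromosomes 13 (40.7%) and 5 (41.7%), with 5% and 4.82%. Between these ends the order did not hold. Chromosome 18 had 23 of 262 genes with a member (8.78%, 5.92 to 12.8) and chromosome X 2.23%, both at 41.8% GC. Chromosomes 2 and 9 had 2.36% and 2.22% of their genes at 42.4% and 44.5% GC. Chromosomes 12 and 15 had 5.50% and 5.77% at 44.2% and 43.9%.

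The TCF/LEF core was found in 142 windows, 22.2% of members (19.2 to 25.6). Windows centred on all canonical TSSs held it in 5.79% and windows tiled over the same promoters in 9.79%, at most 12.6% at any offset. Regions 1 to 5 kb from a TSS held it in 23.4% and distant regions in 28.8%. The GC content of a window changes how often the letters occur, and members were above the tiled windows in each of 3 GC classes, beyond the interval in 2 of them. At 60% GC and over the shares were 18.7% (14 to 24.5) and 3.29%, at 45 to 60% they were 23.7% (19.8 to 28.2) and 9.67%, and under 45% they were 26.3% (15 to 42) and 19.5%, where only 38 members lay. The core was in 28.8% of the 160 members of highest fold enrichment (22.3 to 36.2) and in 19.4% to 21.3% of each of 3 lower groups of like size. It was thus missing from most windows, the strongest included. Matches were spread over the region, with 1.27 per kb within 50 bp of the summit and 0.856 per kb at 200 to 500 bp.

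**Figure D4:**
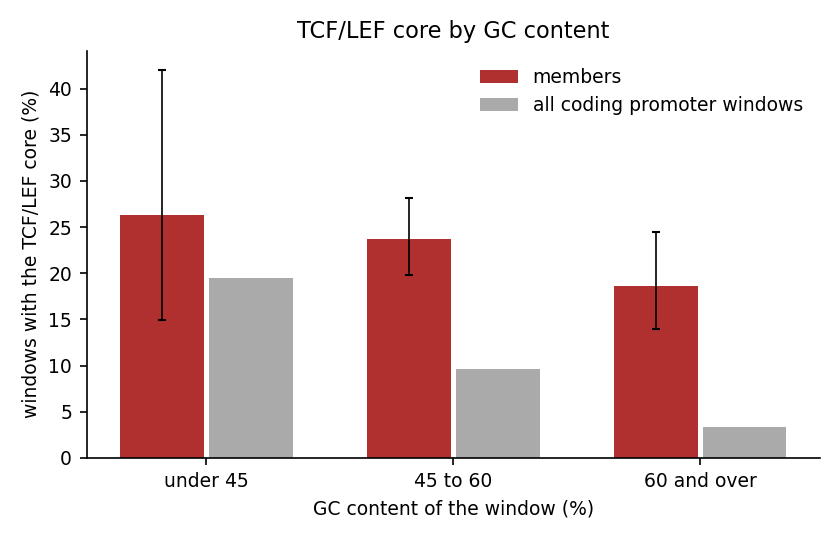
Share of 201 bp windows with a match to the TCF/LEF core, for members (red, with Wilson 95% intervals) and for windows tiled over all canonical coding promoters (grey), by the GC content of the window. Members were at 18.7% and all promoter windows at 3.29% in the most GC-rich class.

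Of 13 motifs searched, 4 others are given here for comparison, and the rest are not described. The AP-1 motif (TGACTCA or TGAGTCA) was in 3.44% of members (2.28 to 5.16) against 2.26% of tiled windows, and the forkhead motif (TATTTAC or TGTTTAC) in 5.01% (3.57 to 6.98) against 3.97%. In windows of 60% GC and over the forkhead motif was in 5.26% of members (2.96 to 9.18) and 0.915% of tiled windows, and AP-1 in 0.957% (0.263 to 3.42) and 1.32%. The SP/KLF box GGGCGG was in 32.2% (28.7 to 36), between the 25.9% of tiled and the 53.7% of TSS-centred windows. The ETS motif CCGGAAG was in 4.85% (3.44 to 6.80), against 11.2% at TSSs and 3.26% in tiled windows. In the same 4 groups by fold enrichment the forkhead motif was in 2.50%, 2.50%, 5.66% and, in the strongest, 9.38% (5.76 to 14.9).

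The genes were read through 41 lists, which were written with earlier results of these data known and so are not independent of them; 204 of the 674 genes were in at least 1 list. Each share below is to be set beside the 3.43% of all coding genes, and each median fold enrichment beside 4.59. The 3.43% is not matched for gene span or surrounding GC content, across whose classes the share ran from 0.470% to 14.7%. Whether a list stands apart from genes of like span and surroundings was not tested. The share of 32 lists was above 3.43%, but the 95% interval lay above it for 8 lists and below it for 2, so most shares below do not stand apart from it. Among the 8 were Wnt targets, Wnt receptors and transducers, TGF-β and BMP, epithelial-mesenchymal regulators and markers, homeobox genes, DNA repair and replication, and phosphodiesterases and A-kinase anchors. The 2 below it were olfactory receptors and keratins. Wnt target genes had the highest share, 7 of 36 (19.4%), with a median fold enrichment of 4.53. DKK1 had 6.83 on 56 reads, TNFRSF19, a TNF receptor family member, 5.16, LGR5 4.56 and CCND1 4.53. SP5, a zinc finger factor, had 3.89, the dominant-negative helix-loop-helix protein ID2 3.86, and AXIN2, a scaffold of the β-catenin destruction complex, 3.64. A low ratio at AXIN2 went with many reads. Its summit had 52 reads over a background of 13.6, more reads than 9.42-fold enriched FBXW7. A second AXIN2 region, 1 bp from a TSS, had 3.19.

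Wnt receptors and transducers had 7 of 51 genes (13.7%), all at or below the median strength. Beside LGR5 and AXIN2 these were the Frizzled receptors FZD1 (4.10), FZD10 (3.67) and FZD2 (3.24), the kinase CSNK1A1 (3.75), which primes β-catenin for degradation, and PRICKLE1 (3.42) of the planar polarity branch. Of 35 ligands and secreted inhibitors only DKK1 had a member. Among 24 TCF/LEF factors, partners and corepressors, the corepressors TLE3 (3.21) and TLE4 (3.07) had one. In the hedgehog pathway 2 of 21 genes did, DISP1 (7.65), which releases the ligand, and the co-receptor GAS1 (5.11 on 22 reads, 162 bp upstream of its TSS). The TGF-β and BMP list had 6 of 77 genes (7.79%), with FSTL5 (6.96) and the signal transducers SMAD1 (4.60), SMAD2 (4.56) and SMAD3 (3.57) among them.

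**Figure D5:**
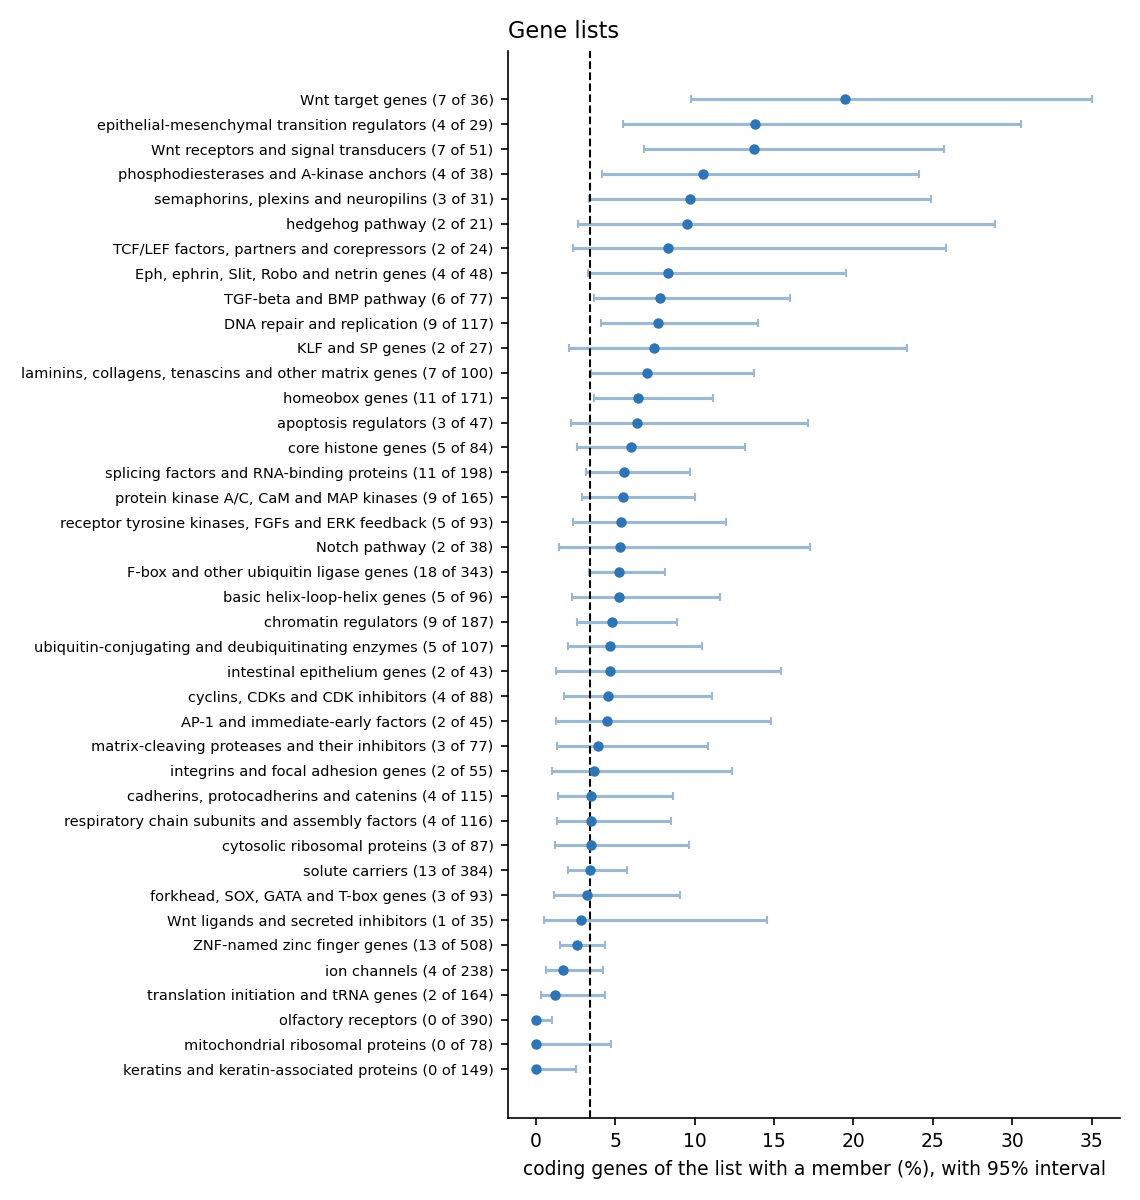
Share of the coding genes that had a member, for 40 of the 41 lists, with Wilson 95% intervals, the counts in brackets and the share over all coding genes (3.43%) as a dashed line. Wnt target genes are at the top with 19.4%, and olfactory receptors, mitochondrial ribosomal proteins and keratins are at 0.

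For genes of guidance and matrix the intervals included the share of all coding genes. Semaphorins, plexins and neuropilins had 3 of 31 (9.68%), all class 3 semaphorins: SEMA3A, SEMA3E (5.88) and SEMA3C (3.50). Eph, ephrin, Slit and Robo genes had 4 of 48 (8.33%), the Eph receptors EPHA3 (6.38) and EPHA6 (4.82), the netrin receptor NEO1 (5.31) and ROBO1 (4.54). Matrix genes had 7 of 100 (7%), led by TNC (tenascin-C, 7.45 on 39 reads), SPARC (5.96), COL19A1 (5.41) and SULF1 (5.07), and LAMA3, a laminin chain of epithelial basement membranes, had 3.45 on 19 reads. The list of regulators and markers of the epithelial-mesenchymal transition had 4 of 29 (13.8%, 5.50 to 30.6), and here the interval lay above the share of all coding genes. They were TCF4, a helix-loop-helix factor despite its name (5.94), GRHL3 (3.47), and the markers VIM (vimentin, 3.27) and CDH2 (N-cadherin, 3.22). Cadherins and catenins as a whole, CDH2 among them, had 4 of 115 (3.48%), near all coding genes.

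Transcription and chromatin genes varied by family. Homeobox genes had 11 of 171 (6.43%), with a median of 3.94, with HOXC5 (6.68), HOXA4 (5.27) and HOXA9 (4.51) among them. Chromatin regulators had 9 of 187 (4.81%), with CHD2 first, then BAZ2B (5.85), CHD9 (4.55) and the acetyltransferase KAT6A (4.55). Zinc finger genes named ZNF, many of which lie on chromosome 19, had 13 of 508 (2.56%). Forkhead, SOX, GATA and T-box genes had 3 of 93 (3.23%), and core histone genes 5 of 84 (5.95%).

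Of the genes for cell machinery, DNA repair and replication had 9 of 117 (7.69%), with RAD23B (6.22), FANCC (5.37), NBN (5.05) and PMS1 (4.98) first. Phosphodiesterases and A-kinase anchors had 4 of 38 (10.5%), led by PDE4D (7.15), which degrades cyclic AMP. Ubiquitin ligase genes had 18 of 343 (5.25%), led by FBXW7. Cytosolic ribosomal proteins had 3 of 87 (3.45%), and solute carriers 13 of 384 (3.39%), both near all coding genes. Ion channels had 4 of 238 (1.68%). No member was found at 390 olfactory receptor genes, 149 keratin and keratin-associated genes or 78 mitochondrial ribosomal protein genes.

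In 25 genes more than 1 member was found. PDE4D had 3, at 7.15, 6.50 and 3.38, spread over chr5:59275927-59769016. DTNA, a dystrophin-associated protein, had 3 at 6.36, 5.49 and 4.56, and the one at 5.49 was in multi-copy sequence. MEF2C, a muscle and neural transcription factor, had 3 between 4.56 and 4.98, and MBNL1, a splicing regulator, 3 between 3.62 and 4.56. ANK3, the membrane adaptor ankyrin-G, had 7.68 and 4.46 at promoters far apart, and PLEKHA5 had 8.39 and 6.07. CHD2 had its second region, at 4.11, within 4 kb of the first, and AXIN2 and NEDD9 had theirs side by side.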

How the data were processed

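ChIP-seq of 2 samples, TCF7L1 and TCF7L1-MUT, was grouped by labelled genotype. Reads were trimmed by the authors with skewer, mapped to GRCh38/hg38 with BWA (version 0.7.12) and turned into peaks, sample by sample, with MACS2 (version 2.1.0); FastQC is also listed in the submitters' processing notes. Use of an input library, the q-value threshold and the handling of duplicates are not given in the sources used here, and each could add or remove regions. The deposited narrowPeak values are the fold enrichment, a ratio to local background, and the −log10 of the p-value and q-value. The deposited score is 10 times −log10 q cut to a whole number and was not used. The study gives a similar number of reads for both libraries, and no depth was computed here, as the files used hold no reads.

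The members, gene lists and named genes were chosen with earlier results of these data known. A region was represented by its first listed summit. TSSs of protein-coding transcripts came from GENCODE release 44, and all 3694 regions on chromosomes 1 to 22 and X ended within the hg38 chromosomes. Coordinates are 1-based. Reads at a summit were solved from fold enrichment and a Poisson p-value, with 100% of members within 0.001 of −log10 p. Shares have Wilson 95% intervals and medians binomial ones, covering counting error only. Windows of 100 bp to either side of the summit, 31-base words for copy number, and canonical promoters at 21 offsets served for sequence. GC content of the surroundings was summed in bins of 1 kb. Named genes were the 10 strongest members, GAS1, TNC, LAMA3, LGR5, FZD8, AXIN2 and SP5, up to 4 per list, the 6 strongest divergent pairs, genes with several members, and those at the border. Some results these rules give are not reported here. Others in the text, and the printed sequences, were chosen after their values were seen. So were the comparisons by surrounding GC content, gene span, chromosome, GC class of the window, group of fold enrichment and side and GC content by distance, which were not among the planned results. Alternatives were stricter thresholds (q up to 0.001, or 5-fold enrichment and over), other TSS sets, distances, windows and pair limits, other overlap rules, and single-copy windows alone. Python 3.11.15, numpy 2.4.6, pandas 2.3.3, scipy 1.17.1, pysam 0.24.0 and numba 0.67.0 were used, and the scripts were tested on simulated data.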

Additional observations from a re-analysis of the deposited data

How the results depend on the processing

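No paired analysis was possible because there was a single library of each protein, so none could be left out either. Of 53 values recomputed, 43 stayed within 1.5 times the main count or within the main interval, and 10 moved. With a fold enrichment of at least 5, 229 regions at 245 genes were left, 65 of them in a list, the share of summits upstream was 55.5% and the TCF/LEF core was in 26.2% of windows. The share upstream was 56% within 500 bp of the TSS and 45.7% with canonical TSSs alone. The core was in 10.8% of windows of 50 bp to either side and 42.3% of windows of 250 bp, where tiled promoter windows of those lengths held it in 4.96% and 22.3%. The median fold enrichment was 4.80 among regions passing q of 0.001. The stricter thresholds and other windows change these values by their construction. By distance to any coding TSS in place of the canonical one, an alternative chosen after seeing the data, the median GC content within 100 bp downstream was 56.7% in place of 58.2%. Without multi-copy windows 614 regions at 649 genes were left and no result moved. With few reads per summit, weak regions near the threshold could be missed, and a gene without a member may hold one below it.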

Other observations

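Other gene families were looked at after the values were seen, so their counts are descriptions. Centrosomal genes named CEP or POC had a member at 7 of 38 (18.4%): CEP120, CEP135, CEP44, CEP63, CEP85L, CEP95 and POC1B, with fold enrichments from 4.32 to 5.70. THAP domain genes, which encode zinc-binding DNA-binding proteins, had 3 of 12 (THAP2, THAP9 and THAP10). All 3 share their region with a divergent gene, ZFC3H1 (4.77), SEC31A (5.46) and LRRC49 (5.81). Adhesion genes of neurons and synapses had 7 of 48 (14.6%), among them NLGN1, NCAM2, CNTN5 and TENM3. Nuclear receptors had 4 of 43 (9.30%): ESRRG, NR3C1, NR5A2 and RARB. Over all coding genes the share was 3.43%, which is not matched for gene span or surrounding GC content.

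Among the 25 multi-copy members, that of NBPF14 and NOTCH2NLB had the highest fold enrichment, 8.03, and MID1 (7.69) and SYT1 (7.54) followed. Reads there may come from other copies, and which copy they came from was not tested.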
